A study of Mus musculus with 6 samples.

Results

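Mouse macrophages that had received betulin together with IL4 were set against macrophages that had received IL4 alone, which are 2 of the 6 libraries of the series. Both were bone-marrow-derived macrophages of C57BL/6 mice, grown from bone marrow in DMEM with 10% FBS and 10 ng/ml M-CSF over 5 days and then exposed to the treatment for 24 hours. All 6 libraries received IL4, and the other 4 received fatostatin, 25-HC, PF429424 or 1,10-Phen on top of it. Those 4 served here for the scaling, for the expression filter and as levels beside a gene. The labels give neither the dose of any agent nor a vehicle nor the number of mice, and cells without IL4 were not analysed here, so the ratios do not show which genes IL4 itself had altered. Genes entered the comparison when their CPM, the count scaled to a common library total, reached 1 in at least 1 of the 6 libraries, which held for 11898 of the 16775 genes in the files.

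Betulin is a plant triterpenoid known to hold SREBP transcription factors back from maturation by acting on their escort protein SCAP. SREBPs are made as membrane proteins of the endoplasmic reticulum, leave it with SCAP when sterol is scarce, and after cleavage switch on the genes of cholesterol synthesis, fatty acid synthesis and sterol uptake. IL4 acts in macrophages through its receptor and the transcription factor STAT6, and the state it brings about, alternative activation, is known by products such as arginase, resistin-like and chitinase-like proteins and lectin receptors. The series title names SREBP2 and alternative activation, so the comparison asks how the macrophage transcriptome under IL4 differed when betulin was added.

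The betulin library held 20967602 estimated counts and the IL4 library 20181396, and the 6 libraries ranged from 20181396 to 21169667. Levels are given as CPM after TMM scaling (trimmed mean of M-values, which evens out differences in library composition), and differences as the log2 ratio of betulin with IL4 over IL4 alone. Because each treatment was sequenced in 1 library, differences could not be checked against replicates and p-values are left out. A gene was counted as higher or lower when its log2 ratio reached 1 in size, a 2-fold difference, and its exact 95% counting interval excluded no change. Such an interval covers counting error only and says nothing about the spread between cultures. By this rule 227 genes (1.91%) were higher and 272 (2.29%) were lower with betulin, 4.19% in all, and the median over all genes compared was 0.01.

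The share of genes past 2-fold depended on the expression level. It was 17.8% among 518 genes with a mean of the 2 libraries under 1 CPM and 11.9% among 1634 genes from 1 to 5 CPM. Among 4908 genes from 20 to 100 CPM it was 1.32%, and among 2092 genes at or above 100 CPM it was 1.58%. In all, 34 genes were at least 4-fold higher and 34 at least 4-fold lower. The middle 90% of log2 ratios lay between -0.72 and 0.62.

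**Figure D1:**
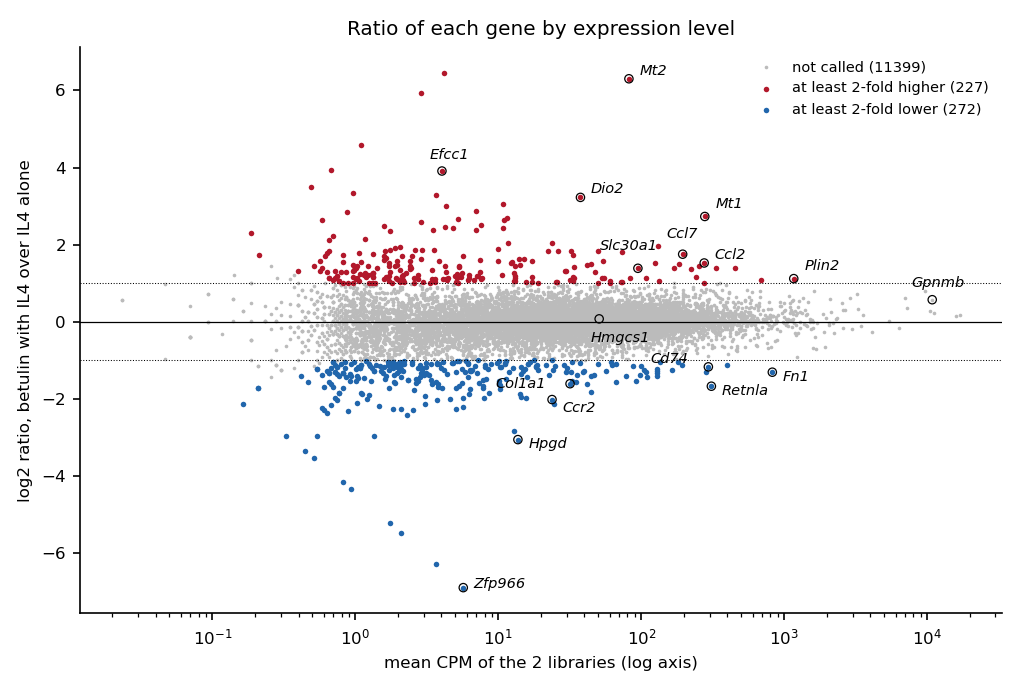
Each point is a gene, placed by the mean CPM of the betulin and IL4 libraries (log axis) and by its log2 ratio, betulin with IL4 over IL4 alone; dotted lines mark 2-fold, and circles mark the genes that carry a name. Red marks the 227 higher and blue the 272 lower genes, and the cloud narrows with level, with Mt2 at 6.30 and Hmgcs1 at 0.07; the ratio of a gene with 0 counts in a library, such as Zfp966, depends on the prior count of 2.

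The levels in the 4 other libraries show which of the 2 libraries stood out for a gene. Of the 227 higher genes, betulin had the highest level of all 6 libraries for 79 (34.8%, against 9.25% of all genes compared), and IL4 alone had the lowest level for 133 (58.6%, against 17.7%). Of the 272 lower genes, betulin had the lowest level for 64 (23.5%, against 9.43%), and IL4 alone had the highest for 178 (65.4%, against 17.3%). The rule picks genes by the gap between these 2 libraries, so higher shares than over all genes follow in part from that choice. Each ratio thus describes the distance between these 2 libraries. A difference shared by several compounds cannot be told apart from a deviation of the IL4 library.

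Macrophage markers were present in both libraries. The 15 markers summed to 10949 CPM with betulin and 13582 CPM with IL4 alone, within a range of 8546 to 13860 CPM over the 6 libraries, and 1 of them, Cx3cr1, was at least 2-fold lower. Of the 12 stromal markers 8 passed the filter and 4 were lower, and all 12 summed to 51.3 CPM with betulin and 128 CPM with IL4 alone, where the 6 libraries ranged from 51.3 to 143 CPM. The collagens Col1a1 and Col1a2 held most of that sum. Of the 8 stromal ratios 6 were below 0 and 2 above, Pdgfra at 0.11 and Cxcl12 at 0.16. The stromal markers Fap, Col3a1, Dcn and Lum were under the filter. The 17 neutrophil markers summed to 828 CPM with betulin and 833 CPM with IL4 alone, with S100a8 higher and Csf3r lower. Mmp8 alone was at 460 CPM with betulin and 527 CPM with IL4 alone. Of the 15 neutrophil markers that passed the filter, 10 ratios were above 0 and 5 below. Their median was 0.49, or 0.31 with a filter of 5 CPM and 0.26 against the median of the 6 libraries. The 12 dendritic cell markers summed to 51.1 CPM with betulin and 80.1 CPM with IL4 alone, with 0 called of the 6 that passed the filter. Ccl22, also known as a product of alternative activation, was by itself at 33.9 CPM with betulin and 59.9 CPM with IL4 alone. Of 8 B cell markers 1 passed the filter, Cd79b, which was lower at -1.43, and Ms4a1 was at 0 with betulin. B cell markers summed to 1.69 CPM with betulin and 5.40 CPM with IL4 alone, and T and NK cell markers to 6.94 CPM with betulin and 9.31 CPM with IL4 alone. In such bulk libraries fewer cells of a type and less RNA per cell cannot be told apart.

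Genes that buffer and move zinc held the highest ratio of the named genes. Metallothioneins are small cysteine-rich proteins that bind zinc and copper, and their genes are switched on by MTF1, a zinc-sensing transcription factor that binds metal response elements in their promoters. Mt2 stood at 162 CPM with betulin, 8.80 with fatostatin, 1.82 with 25-HC, 6.10 with PF429424 and 161 with 1,10-Phen, against 1.96 CPM with IL4 alone. Mt1 stood at 483 CPM with betulin, 102 with fatostatin, 37.4 with 25-HC, 73.0 with PF429424 and 479 with 1,10-Phen, against 72.7 CPM with IL4 alone. The betulin and 1,10-Phen libraries were thus the high ones for both genes, while the IL4 library lay among the other 3. The log2 ratio was 6.30 for Mt2 (interval 5.93 to 6.85; 3451 counts with betulin and 42 with IL4 alone) and 2.73 for Mt1 (interval 2.65 to 2.81). Per transcript length, Mt2 was at 311 FPKM and Mt1 at 952 FPKM with betulin, against 3.94 FPKM for Mt2 and 150 FPKM for Mt1 with IL4 alone. Mt3, known as the brain form, was at 0.70 CPM in both libraries.

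The promoters of the 3 zinc genes that rose are shown as the 250 bases before the RefSeq start on GRCm38.p6, read on the strand of the gene, all 3 on the plus strand. Mt2 is at chr8:94172368-94172617, Mt1 at chr8:94178839-94179088 and Slc30a1 at chr1:191906531-191906780. Capitals mark the core of the metal response element, searched as TGCACNC and TGCGCNC on both strands.
Mt2: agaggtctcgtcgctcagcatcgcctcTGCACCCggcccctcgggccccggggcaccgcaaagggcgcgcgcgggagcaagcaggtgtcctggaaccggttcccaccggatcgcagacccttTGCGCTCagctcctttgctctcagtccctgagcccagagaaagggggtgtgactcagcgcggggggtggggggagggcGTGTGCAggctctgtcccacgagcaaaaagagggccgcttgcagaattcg
Mt1: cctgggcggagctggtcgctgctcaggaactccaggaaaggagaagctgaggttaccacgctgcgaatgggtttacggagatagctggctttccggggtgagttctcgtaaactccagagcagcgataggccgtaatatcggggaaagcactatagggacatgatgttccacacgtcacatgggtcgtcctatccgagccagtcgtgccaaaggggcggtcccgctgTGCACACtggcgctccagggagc
Slc30a1: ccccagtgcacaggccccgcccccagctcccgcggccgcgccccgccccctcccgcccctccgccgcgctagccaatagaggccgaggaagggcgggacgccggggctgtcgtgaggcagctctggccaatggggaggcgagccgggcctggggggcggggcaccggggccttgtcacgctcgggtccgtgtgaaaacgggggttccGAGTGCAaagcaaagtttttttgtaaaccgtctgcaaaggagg
Within these 250 bases Mt2 had 3 matches, which begin 223, 128 and 50 bases before the start, and Mt1 and Slc30a1 had 1 each. Bases outside the window, including those after the annotated start, were not searched, so a low number does not show a promoter poor in matches. At least 1 match was found in 21.3% of 27025 RefSeq promoters of this length and 3 or more in 1.28%. Among genes compared, 2.14% of promoters had 3 or more. Of metallothionein and zinc transporter genes that passed the filter, 8 of 19 promoters had a match. The share with a match was 30.5% of the 174 higher genes with a promoter in the table, 24.5% of 204 lower genes and 29.8% of 9574 genes compared. A match is a description of letters and not a binding site.

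Among the zinc transporters, 1 exporter rose and 1 importer fell. Slc30a1, which carries zinc out of the cell across the plasma membrane, was at 137 CPM with betulin, 55.1 with fatostatin, 54.3 with 25-HC, 50.7 with PF429424 and 164 with 1,10-Phen, against 52.3 CPM with IL4 alone, a log2 ratio of 1.39. Slc39a10, which carries zinc into the cell, was at 20.5 CPM with betulin, 58.6 with fatostatin, 77.6 with 25-HC, 75.6 with PF429424 and 119 with 1,10-Phen, against 63.2 CPM with IL4 alone, a log2 ratio of -1.62. For Slc39a10 the betulin library lay below all 5 others, whereas for Slc30a1 the 1,10-Phen library was higher still. Of the 26 genes on the list of metallothioneins and zinc transporters, 21 passed the filter, 3 were higher, 1 was lower and 17 were within 2-fold, with a median of 0.12. Within 2-fold, the importers Slc39a6 and Slc39a7 had log2 ratios of 0.41 and 0.33, and Mtf1 had 0.12. Slc30a2, Slc30a3, Slc30a10, Slc39a2 and Slc39a4 were under the filter.

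**Figure D2:**
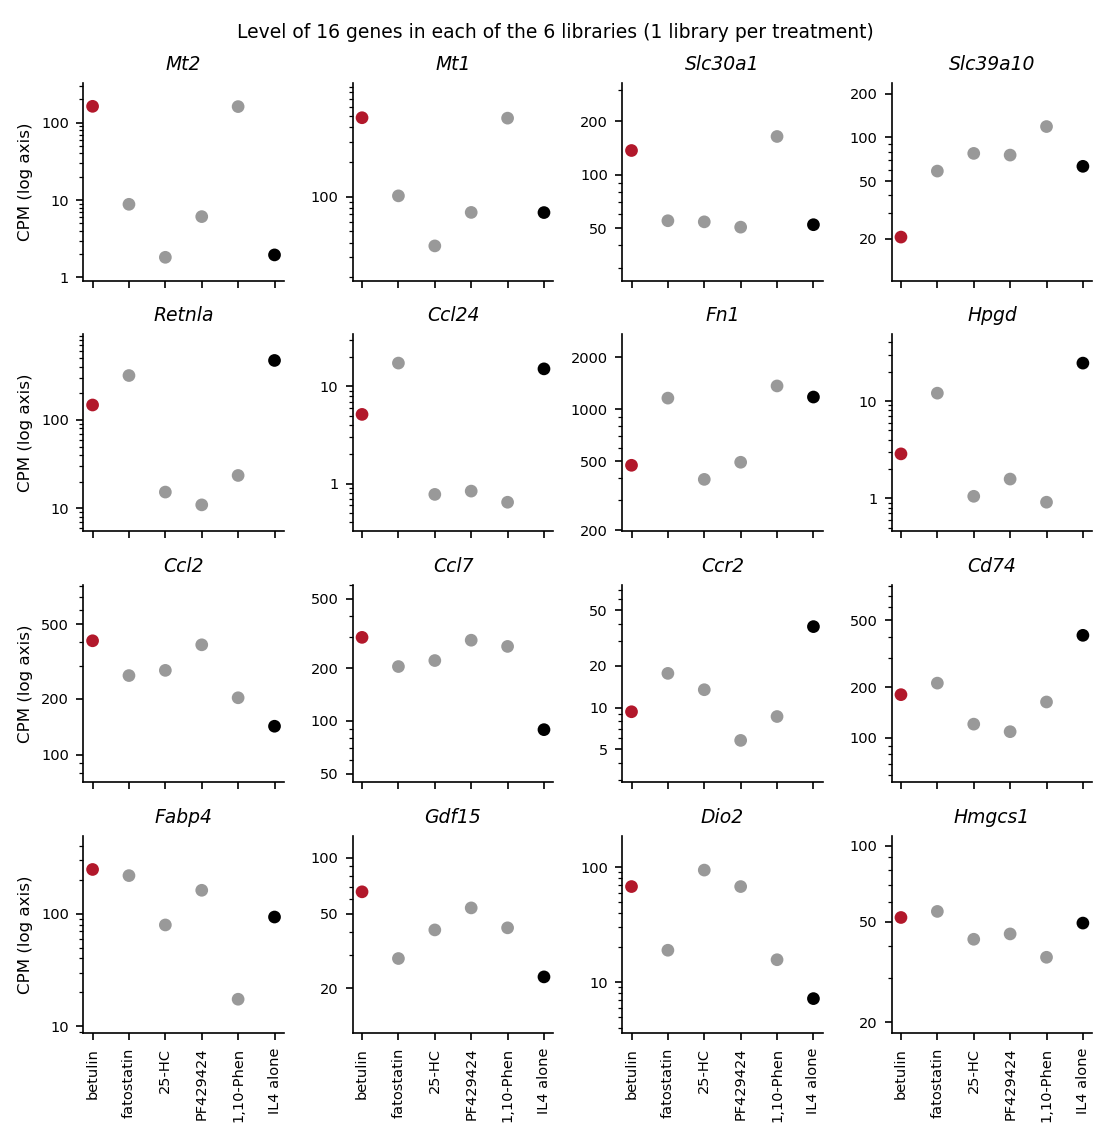
Each panel shows a gene named in the text and each point its CPM (log axis, scaled per panel) in 1 library, with betulin in red at the left, the 4 other compounds in grey and IL4 alone in black at the right. Mt2, Mt1 and Slc30a1 were high with betulin and 1,10-Phen, Slc39a10 was lowest with betulin, and for Retnla, Hpgd, Ccr2 and Cd74 the IL4 library was the highest.

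Of 24 iron and copper genes 21 passed the filter, with 0 higher and 1 lower and a median of 0.04. Slc40a1, ferroportin, the iron exporter, was at 77.3 CPM with betulin and 181 CPM with IL4 alone, a log2 ratio of -1.22. Tfrc, the transferrin receptor for iron uptake, was at 344 CPM with betulin and 571 CPM with IL4 alone, a log2 ratio of -0.73. Hmox1, haem oxygenase, had 0.67, Slc11a2, an iron importer, 0.53, and Fth1, the ferritin heavy chain, 0.35. Across the 6 libraries Slc40a1 was within the range of the others with betulin as well as with IL4 alone.

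Genes of cholesterol synthesis, the main targets of SREBP2, were near their level with IL4 alone. All 21 passed the filter, 0 were called in either direction, 9 ratios were above 0 and 12 below, and the median was -0.03, beside a median of 0.01 over all genes compared. With library totals in place of TMM factors the median was -0.10, and against the median of the 6 libraries it was 0.11. Ratios ran from -0.25 for Nsdhl to 0.41 for Hsd17b7, both enzymes of sterol demethylation. Hmgcs1, which makes HMG-CoA, was at 52.0 CPM with betulin and 49.4 CPM with IL4 alone, a log2 ratio of 0.07 (interval -0.05 to 0.20). Fdps, farnesyl diphosphate synthase, was at 24.8 CPM with betulin and 18.8 CPM with IL4 alone, and Sqle, squalene epoxidase, at 16.04 CPM with betulin and 12.9 CPM with IL4 alone. Fdps, Sc5d and Hsd17b7 had their highest level of the 6 libraries with betulin. The 9 genes of the mevalonate stage had a median of -0.03 and the 12 of the sterol stage of -0.06.

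**Figure D3:**
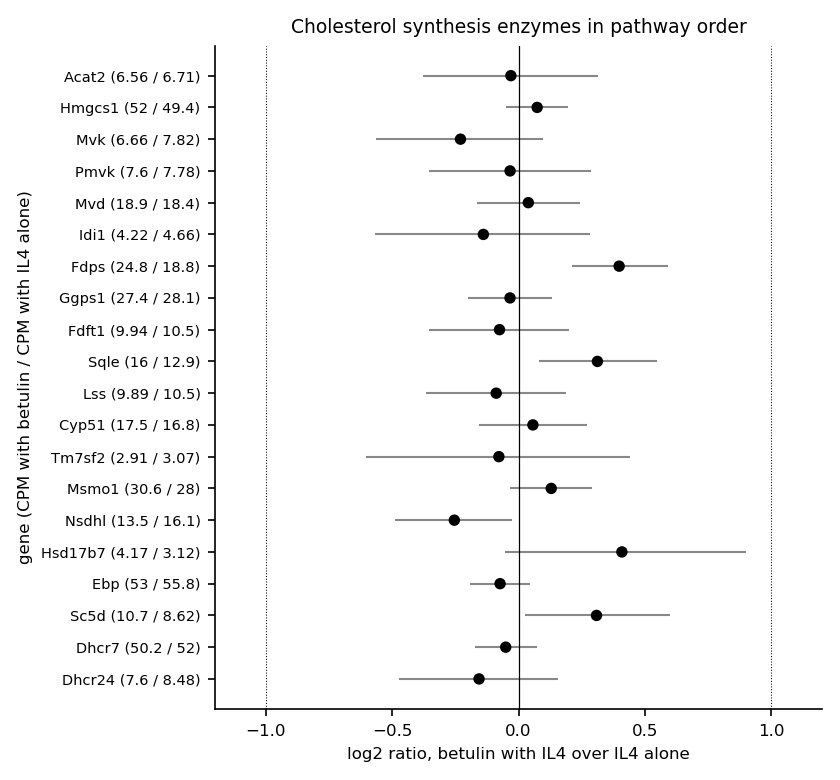
Points are log2 ratios, betulin with IL4 over IL4 alone, for 20 cholesterol synthesis genes in pathway order from top to bottom; lines are exact 95% counting intervals, dotted lines mark 2-fold, and the CPM with betulin and with IL4 alone stand beside each gene. The ratios lie between -0.25 and 0.41, with the intervals short of 2-fold on either side.

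The genes that sense sterol and import it were within 2-fold. Of 16 genes for the SREBP machinery and sterol uptake, 14 passed the filter and 0 were called, with a median of -0.02. The 7 machinery genes had a median of -0.02 and the 7 uptake genes of -0.13, with 5 of these 7 below 0, down to -0.63 for the lipoprotein receptor Vldlr at 0.66 CPM with betulin and 1.07 CPM with IL4 alone. Srebf2 itself was at 82.2 CPM with betulin and 83.9 CPM with IL4 alone, and Srebf1 at 69.7 CPM with betulin and 67.7 CPM with IL4 alone. Scap had a log2 ratio of 0.02, and Insig1, which retains SCAP in the endoplasmic reticulum, had -0.02. Stard4, a sterol carrier and SREBP2 target, was at 12.99 CPM with betulin and 17.5 CPM with IL4 alone, a log2 ratio of -0.42. Of 17 fatty acid synthesis genes 15 passed the filter, with a median of -0.09, and 2 were lower, the desaturase Fads2 at 0.33 CPM with betulin and 0.98 CPM with IL4 alone and the carboxylase Acacb at 0.47 CPM with betulin and 1.12 CPM with IL4 alone. Fasn, fatty acid synthase, was at 92.3 CPM with betulin and 84.2 CPM with IL4 alone.

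Targets of the oxysterol-sensing LXR receptors tended below 0. Of 14 genes for LXR and cholesterol export 11 passed the filter, 9 had ratios below 0 and 1 was called lower, with a median of -0.44, or -0.15 against the median of the 6 libraries. Apoe, a lipid carrier that macrophages secrete, was at 1494 CPM with betulin and 2345 CPM with IL4 alone, a log2 ratio of -0.65. Apoc2, the cofactor of lipoprotein lipase, was at 2.63 CPM with betulin and 5.54 CPM with IL4 alone, a log2 ratio of -1.05. Against the median of the 6 libraries instead of the IL4 library, Apoc2 turned to 0.14. The cholesterol exporters Abca1 and Abcg1 had -0.18 and 0.40. Cyp27a1, which makes an oxysterol, was at 8.86 CPM with betulin and 20.1 CPM with IL4 alone, a log2 ratio of -1.17, while Soat1, which esterifies cholesterol for storage, had 0.26.

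Genes of lipid storage and uptake were higher in part. Of 26 genes for lipid droplets and fatty acid use 24 passed the filter, 3 were higher and 0 lower, with a median of -0.02. Plin2, the main lipid droplet coat protein of macrophages, was at 1594 CPM with betulin, 1191 with fatostatin, 1778 with 25-HC, 1228 with PF429424 and 1268 with 1,10-Phen, against 735 CPM with IL4 alone. Fabp4, a fatty acid binding protein, was at 247 CPM with betulin, 217 with fatostatin, 79.4 with 25-HC, 161 with PF429424 and 17.4 with 1,10-Phen, against 93.3 CPM with IL4 alone. Plin2 was thus lowest with IL4 alone, and Fabp4 highest with betulin. The log2 ratio was 1.12 for Plin2, 1.40 for Fabp4 and 1.84 for Hilpda, an inhibitor of droplet lipolysis. Pparg, the fatty acid receptor that drives Fabp4, was at 191 CPM with betulin and 108 CPM with IL4 alone, a log2 ratio of 0.83, and betulin had its highest level of the 6 libraries. The scavenger receptor Cd36 had 0.73, Fabp5 had 0.85, and Lipe, hormone-sensitive lipase, had -0.82.

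Genes known from lipid-laden and Trem2-dependent macrophages leaned upward without passing 2-fold, except for Fabp4. All 23 passed the filter, 18 ratios were above 0, and the median was 0.47. Gpnmb, a transmembrane glycoprotein, was at 12943 CPM with betulin and 8717 CPM with IL4 alone, a log2 ratio of 0.57. Mmp12, macrophage elastase, had 0.80, Spp1, osteopontin, 0.81, Lgals3, galectin-3, 0.62, and Ctsl, a lysosomal protease, 0.61. Trem2 itself was at 392 CPM with betulin and 398 CPM with IL4 alone. Against the median of the 6 libraries the list median was 0.020.

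Several secreted products of alternative activation were lower, while its enzymes were within 2-fold. Of 39 genes on the list 34 passed the filter, 6 were lower, 1 was higher, 28 ratios were below 0, and the median was -0.42, or -0.048 against the median of the 6 libraries. Retnla, a resistin-like protein, was at 147 CPM with betulin, 318 with fatostatin, 15.3 with 25-HC, 10.9 with PF429424 and 23.5 with 1,10-Phen, against 471 CPM with IL4 alone. Ccl24, an eosinophil-attracting chemokine, was at 5.16 CPM with betulin, 17.4 with fatostatin, 0.77 with 25-HC, 0.84 with PF429424 and 0.64 with 1,10-Phen, against 15.2 CPM with IL4 alone. Fn1, fibronectin, was at 474 CPM with betulin, 1158 with fatostatin, 393 with 25-HC, 493 with PF429424 and 1362 with 1,10-Phen, against 1175 CPM with IL4 alone. For Retnla and Ccl24 the betulin library thus lay below IL4 alone and above 3 of the other compounds.

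The log2 ratio was -1.67 for Retnla, -1.54 for Ccl24 and -1.31 for Fn1. Rnase2a, an eosinophil-type ribonuclease, was at 97.0 CPM with betulin and 233 CPM with IL4 alone, a log2 ratio of -1.27. Cd163, the scavenger of haptoglobin-bound haemoglobin, was at 3.66 CPM with betulin and 13.5 CPM with IL4 alone, a log2 ratio of -1.86. Against the median of the 6 libraries Retnla, Ccl24, Rnase2a and Cd163 turned to positive values, their levels with 25-HC, PF429424 and 1,10-Phen being lower still. Tgfbi, a matrix protein, had -1.05, and Il1rn, the natural antagonist of the IL1 receptor, was at 370 CPM with betulin and 135 CPM with IL4 alone, a log2 ratio of 1.45 and the highest level of the 6 libraries.

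The 12 secreted products had a median of -0.89, with 5 lower and 1 higher. The 9 enzymes had a median of -0.19 and 0 called, and the 13 surface proteins a median of -0.33 with 1 lower. Arg1, arginase, was at 3297 CPM with betulin and 3573 CPM with IL4 alone, a log2 ratio of -0.12. Chil3, a chitinase-like protein, had -0.20 and Mrc1, the mannose receptor, -0.72. Tgm2, transglutaminase, had 0.41. Pdcd1lg2, a ligand of PD-1, was at 25.2 CPM with betulin and 49.97 CPM with IL4 alone, just short of the 2-fold rule at -0.99.

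The receptor and signalling genes of IL4 were within 2-fold. All 18 genes of the IL4 receptor and STAT6 pathway passed the filter, 0 were called, and the median was -0.08. Il4ra, the ligand-binding chain, was at 88.4 CPM with betulin and 94.0 CPM with IL4 alone, and Stat6 at 250.4 CPM with betulin and 263 CPM with IL4 alone. Cebpb, a transcription factor, had 0.81, Irf4 had -0.59, and Cish, a feedback inhibitor, -0.40. Of 19 genes for arginine and polyamine metabolism 0 were called, with Azin1, Srm and Odc1, which promote polyamine synthesis, at 0.68, 0.58 and 0.55, and the mitochondrial arginase Arg2 at -0.87. The 24 scavenger and lectin receptors that passed the filter had a median of -0.20 and 2 lower, Cd163 and the C-type lectin gene Clec4a1 at -1.40.

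**Figure D4:**
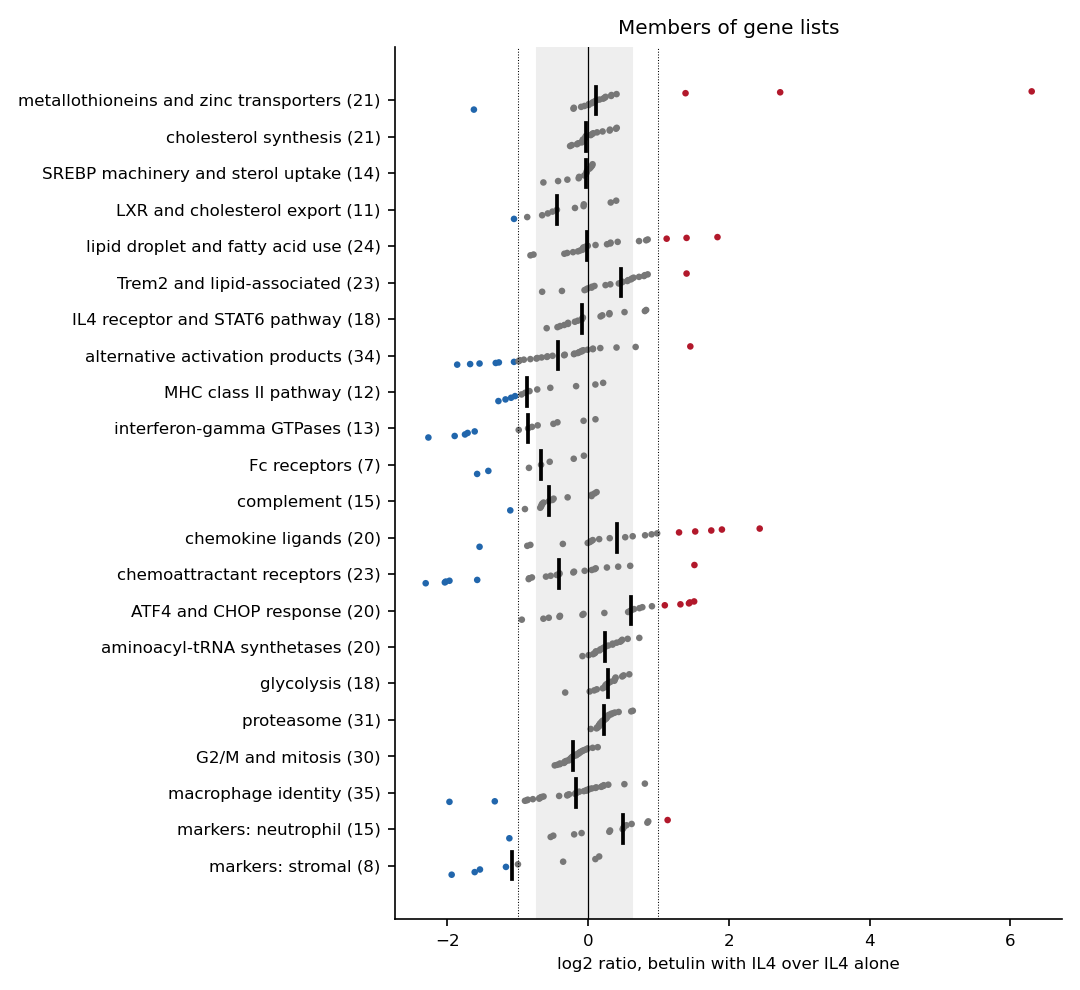
Each point is a list member that passed the filter (number in brackets), placed by its log2 ratio, betulin with IL4 over IL4 alone; red and blue mark genes called higher and lower, black bars the list medians, the grey band the middle 90% of all genes compared, and dotted lines 2-fold. Cholesterol synthesis lies around 0, MHC class II and interferon-gamma GTPases lie to the left with medians of -0.86 and -0.85, and the ATF4 list to the right with 0.61.

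Several chemokine ligands that attract monocytes and neutrophils were higher. Of 28 ligands 20 passed the filter, 5 were higher and 1 lower, with a median of 0.42, which was 0.23 with a filter on TMM-scaled totals and 0.27 against the median of the 6 libraries. Ccl2, the main ligand of CCR2, was at 408 CPM with betulin, 266 with fatostatin, 283 with 25-HC, 389 with PF429424 and 202 with 1,10-Phen, against 142 CPM with IL4 alone. Ccl7, another CCR2 ligand, was at 300.1 CPM with betulin, 204 with fatostatin, 221 with 25-HC, 289 with PF429424 and 266 with 1,10-Phen, against 89.1 CPM with IL4 alone. For both the betulin library was the highest and the IL4 library the lowest of the 6. The log2 ratio was 1.52 for Ccl2 and 1.75 for Ccl7. Cxcl2, a neutrophil attractant, was at 8.25 CPM with betulin and 1.44 CPM with IL4 alone, a log2 ratio of 2.44 (interval 1.96 to 3.12), and Cxcl3, of the same family, had 1.90 with 3.05 CPM with betulin and 0.75 CPM with IL4 alone. Ccl12, a mouse relative of Ccl2, had 1.29. Ccl4 and Ccl3, macrophage inflammatory proteins, had 0.98 and 0.90, while Ccl9 and Ccl6 were at 0.00 and 0.03 and Ccl22, a product of alternative activation, at -0.82.

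Receptors for chemoattractants were lower in part. Of 26 receptors 23 passed the filter, 5 were lower and 1 higher, with a median of -0.41, which was -0.21 with a filter of 5 CPM and -0.071 against the median of the 6 libraries. Ccr2, the receptor of Ccl2 and Ccl7 on inflammatory monocytes, was at 9.33 CPM with betulin, 17.6 with fatostatin, 13.4 with 25-HC, 5.81 with PF429424 and 8.62 with 1,10-Phen, against 38.1 CPM with IL4 alone. Cx3cr1, the fractalkine receptor, was at 2.25 CPM with betulin and 9.08 CPM with IL4 alone, a log2 ratio of -1.97. P2ry12, a nucleotide receptor best known from microglia, was at 1.41 CPM with betulin and 6.05 CPM with IL4 alone, a log2 ratio of -2.03. The log2 ratio of Ccr2 was -2.02. For Ccr2, Cx3cr1 and P2ry12 the IL4 library was the highest of the 6, and against the median of the 6 libraries P2ry12 turned to 0.74. P2ry12 lies within the gene Med12l, and the sources used here do not give the strand setting of the counting. Ccrl2, a decoy-type receptor that binds chemerin, was at 18.2 CPM with betulin and 6.33 CPM with IL4 alone, a log2 ratio of 1.51. Ccr1, a receptor of several CC chemokines, had 0.43.

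**Figure D5:**
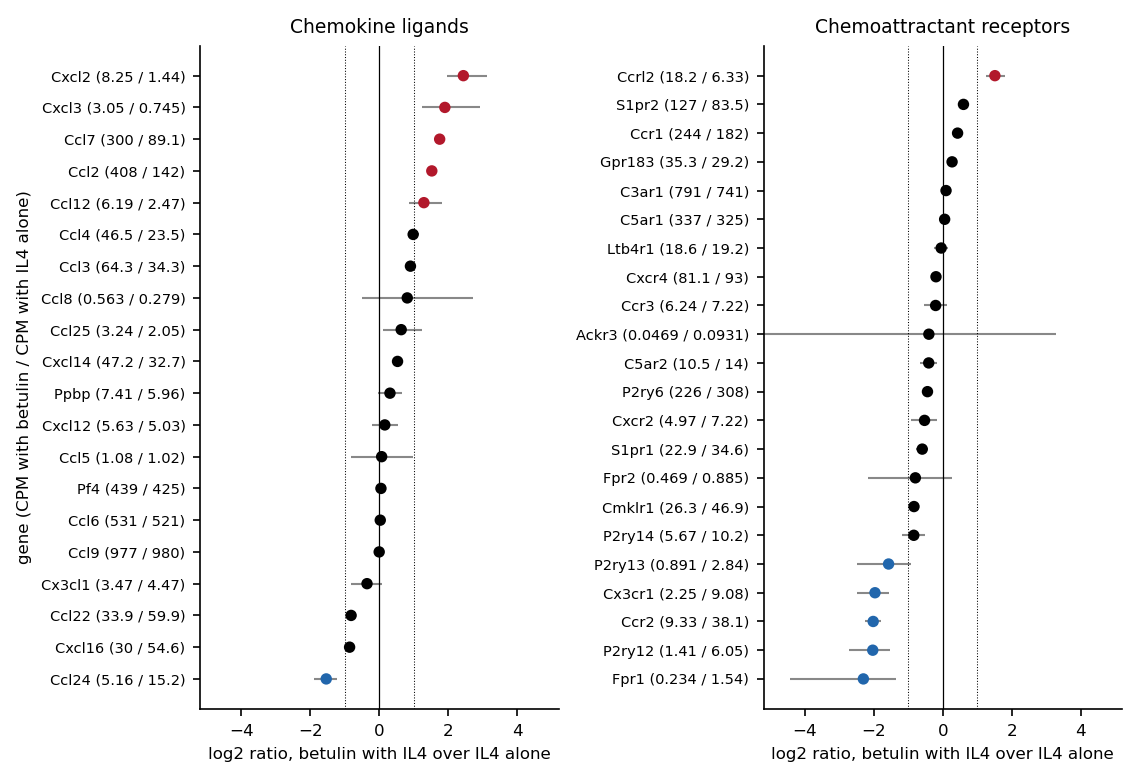
Points are log2 ratios, betulin with IL4 over IL4 alone, for chemokine ligands (left) and 22 chemoattractant receptors (right) that passed the filter, sorted by ratio; lines are exact 95% counting intervals, red and blue mark genes called higher and lower, and the CPM with betulin and with IL4 alone stand beside each gene. Cxcl2, Cxcl3, Ccl7, Ccl2 and Ccl12 lie past 2-fold on the right and Ccr2, Cx3cr1 and P2ry12 on the left; the interval of Ackr3 runs past the axis.

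Among genes of antigen presentation by MHC class II, the activator, the invariant chain and the DM subunits H2-DMa and H2-DMb2 were lower. Of 15 genes 12 passed the filter, 4 were lower, 0 higher, and the median was -0.86. Ciita, the master activator of these genes, was at 3.70 CPM with betulin, 2.92 with fatostatin, 1.14 with 25-HC, 2.07 with PF429424 and 0.70 with 1,10-Phen, against 9.08 CPM with IL4 alone. Cd74, the invariant chain, was at 181 CPM with betulin, 212 with fatostatin, 121 with 25-HC, 109 with PF429424 and 164 with 1,10-Phen, against 408 CPM with IL4 alone. For both the IL4 library stood above all 5 compound libraries, and against the median of the 6 libraries the list median was 0.094. The log2 ratio was -1.27 for Ciita, -1.17 for Cd74 and -1.09 for H2-DMa, a peptide-loading chaperone. H2-DMb2 had -1.04, with 0.61 CPM with betulin and 1.35 CPM with IL4 alone. The DM subunit H2-DMb1 was within 2-fold at -0.54, with 30.9 CPM with betulin and 44.8 CPM with IL4 alone. H2-Aa and H2-Ab1, the class II chains, had -0.94 and -0.89. Markers of other cells that present antigen by class II were also lower in sum. Those of dendritic cells were at 51.1 CPM with betulin and 80.1 CPM with IL4 alone. Most of that sum was Ccl22, also known as a product of alternative activation, at 33.9 CPM with betulin and 59.9 CPM with IL4 alone. Of the 6 dendritic cell markers that passed the filter 0 were called. Of their ratios 5 were below 0, with Batf3 at -0.06, and Xcr1 had 0.73. B cell markers were at 1.69 CPM with betulin and 5.40 CPM with IL4 alone. The part of these cells in the result was not tested. Class I genes had a median of -0.16 over 21 genes, 0 lower, and 1 higher, H2-Q6, a low gene with close paralogs.

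Lists of antibody and interferon responses had medians below 0 against IL4 alone. The 7 Fc receptor genes that passed the filter all had ratios below 0 and a median of -0.67, with 2 lower, and 0.041 as the median against that of the 6 libraries. Fcgrt, which recycles antibody, was at 24.3 CPM with betulin and 65.1 CPM with IL4 alone, a log2 ratio of -1.42, and Fcrls, an Fc-receptor-like scavenger protein, had -1.57. Of 16 interferon-gamma-induced GTPases and their factors 13 passed the filter, 12 had ratios below 0 and 5 were lower, with a median of -0.85, or -0.12 against the median of the 6 libraries, where Gbp3 turned to 0.0566. Irf8, a factor of the list, had 0.11. These 5 were Gbp3, Gbp5, Gbp7, Gbp8 and Gbp9, guanylate-binding proteins whose genes are near copies of one another, so the split of reads among them is uncertain. Gbp7 was at 2.86 CPM with betulin and 9.83 CPM with IL4 alone, a log2 ratio of -1.75, and Irf1, a factor upstream of them, was at 56.9 CPM with betulin and 98.7 CPM with IL4 alone, or -0.79. Antiviral interferon-stimulated genes had a median of -0.25 over 24 genes, with 1 higher, Rsad2 at 1.29, which encodes viperin.

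Complement genes lay mostly below 0, and of the macrophage identity genes few were called. The 15 complement genes that passed the filter, of 20, had a median of -0.56, or -0.35 with log2(FPKM + 1) and 0.035 against the median of the 6 libraries. C1qa, C1qb and C1qc, the chains of C1q, had -0.90, -0.66 and -0.63. All 35 macrophage identity genes passed the filter, 2 were lower, and the median was -0.17, or 0.041 against the median of the 6 libraries. Maf, a transcription factor of resident macrophages, was at 72.9 CPM with betulin, 196 with fatostatin, 28.5 with 25-HC, 51.9 with PF429424 and 112 with 1,10-Phen, against 183 CPM with IL4 alone, a log2 ratio of -1.32, and Cx3cr1 was the second gene. Csf1r, the M-CSF receptor, was at 1217 CPM with betulin and 1968 CPM with IL4 alone, or -0.69, whereas the transcription factor Spi1 had 0.22.

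Genes of the integrated stress response, in which ATF4 and CHOP answer amino acid shortage or endoplasmic reticulum stress, were higher in part. Of 21 genes 20 passed the filter, 5 were higher and 0 lower, with a median of 0.61. Gdf15, a stress-induced hormone, was at 65.6 CPM with betulin, 28.8 with fatostatin, 41.0 with 25-HC, 53.8 with PF429424 and 42.1 with 1,10-Phen, against 23.01 CPM with IL4 alone. Trib3, a pseudokinase that restrains the response, was at 7.78 CPM with betulin, 3.91 with fatostatin, 32.6 with 25-HC, 34.4 with PF429424 and 128 with 1,10-Phen, against 2.79 CPM with IL4 alone. Betulin had the highest level of the 6 libraries for Gdf15, whereas for Trib3 it lay between fatostatin and the other 3 compounds. The log2 ratio was 1.51 for Gdf15, 1.45 for Trib3, 1.31 for Ppp1r15a, a phosphatase subunit that ends the translation block, and 1.09 for Gadd45a, a growth arrest gene. Atf4 itself was at 301 CPM with betulin and 160 CPM with IL4 alone, a log2 ratio of 0.91, and Ddit3, the CHOP gene, had 0.60.

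Asns, asparagine synthetase, was at 45.0 CPM with betulin, 25.1 with fatostatin, 116 with 25-HC, 202 with PF429424 and 183 with 1,10-Phen, against 21.7 CPM with IL4 alone, a log2 ratio of 1.05. It was the 1 gene called of 11 measured for serine, one-carbon and asparagine synthesis. Against the median of the 6 libraries Asns turned to -0.68, Trib3 to -1.03 and the ATF4 list median to -0.24, the levels of Asns and Trib3 with 25-HC, PF429424 and 1,10-Phen being higher still. Of the 20 aminoacyl-tRNA synthetases 0 were called and 19 had ratios above 0, with a median of 0.24, or -0.18 against the median of the 6 libraries.

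Chac1, a glutathione-degrading enzyme, had 1.55 CPM with betulin and 0.51 CPM with IL4 alone, a log2 ratio of 1.43. ATF4 acts on such genes through a composite element, and the promoters of Trib3, Chac1 and Asns, the 250 bases before the RefSeq start on GRCm38.p6, were searched for it. Trib3 had 0 matches in these 250 bases, and bases outside them were not searched. The 2 promoters with a match are shown. Chac1 is at chr2:119350992-119351241 on the plus strand and Asns at chr6:7693210-7693459 on the minus strand. Capitals mark TGATGNAA, searched on both strands.
Chac1: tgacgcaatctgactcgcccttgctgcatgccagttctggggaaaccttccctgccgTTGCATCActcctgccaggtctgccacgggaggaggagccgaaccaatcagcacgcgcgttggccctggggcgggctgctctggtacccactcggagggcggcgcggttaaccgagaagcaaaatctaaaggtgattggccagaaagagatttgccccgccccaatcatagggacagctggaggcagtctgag
Asns: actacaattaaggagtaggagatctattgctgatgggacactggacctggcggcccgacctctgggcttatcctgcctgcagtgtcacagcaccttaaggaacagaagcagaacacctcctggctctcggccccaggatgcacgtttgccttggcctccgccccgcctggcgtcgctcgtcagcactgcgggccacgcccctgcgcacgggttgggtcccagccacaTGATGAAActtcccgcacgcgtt
These letters occurred in 3.53% of all RefSeq promoters of this length and in 2.11% of those of genes compared. They occurred in 6 of 174 promoters of higher genes (3.45%) and in 5 of 204 of lower genes (2.45%). They were found in 4 of 17 promoters of ATF4 list members that passed the filter, and in 1 of the 5 called higher, Chac1.

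Chaperones of the endoplasmic reticulum were within 2-fold. All 23 passed the filter, 0 were called, and the median was 0.07, with Hspa5, the chaperone BiP, at 1547 CPM with betulin and 1461 CPM with IL4 alone. Of 25 NRF2 and glutathione genes 0 were called, with a median of 0.03, and of 15 glutathione S-transferases that passed the filter 0 were called. Among 16 cytosolic heat shock chaperones 0 were called, and the inducible Hspa1a had 0.90. The 31 proteasome genes had ratios above 0 in every case, from 0.04 to 0.64, with a median of 0.23 and 0 called. With library totals as the scaling that median was 0.17.

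Single genes of further stress and signalling lists were past 2-fold, where 4.19% of all genes compared were called in either direction. Dusp1, a phosphatase that shuts off MAP kinases, was at 115 CPM with betulin and 52.5 CPM with IL4 alone, a log2 ratio of 1.13, and it was 1 of 3 higher among 24 immediate early genes. Of 20 p53 targets 2 were higher and 1 lower. Plk2, a polo-like kinase, was at 481 CPM with betulin and 184 CPM with IL4 alone, a log2 ratio of 1.38, and Mdm2, the p53 ubiquitin ligase, had 0.97. Tnfaip3, which restrains NF-kB, had 1.03 and was the 1 gene called of 20 in the NF-kB list. That count is near the share over all genes, and the median of the list was 0.04. Il1a had 1.01 and Tnf 0.77, while Il16, a T cell attractant, was at 8.44 CPM with betulin and 23.1 CPM with IL4 alone, a log2 ratio of -1.44. Cytokines had 2 higher and 1 lower among 19 that passed the filter, with a median of 0.01.

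Enzymes of lipid mediators included the lowest named ratio after the zinc finger gene Zfp966. Hpgd, which inactivates prostaglandins, was at 2.86 CPM with betulin, 12.05 with fatostatin, 1.05 with 25-HC, 1.58 with PF429424 and 0.91 with 1,10-Phen, against 24.5 CPM with IL4 alone. The IL4 library was thus the highest and betulin lay above the 3 lowest. Its log2 ratio was -3.06 (interval -3.51 to -2.72) against IL4 alone and 0.41 against the median of the 6 libraries. Alox5, which starts leukotriene synthesis, was at 3.33 CPM with betulin and 8.43 CPM with IL4 alone, a log2 ratio of -1.32. Ptgs1, the constitutive cyclooxygenase, had -0.98, and Ptgs2, the inducible one, 0.85. Of 18 prostanoid and leukotriene genes that passed the filter 2 were lower and 0 higher, with a median of -0.18.

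Of 19 genes for matrix and coagulation that passed the filter 4 were lower and 1 higher, with a median of -0.55, or -0.355 with log2(FPKM + 1) and -0.065 against the median of the 6 libraries. F13a1, the subunit of coagulation factor XIII made by macrophages, was at 46.8 CPM with betulin, 109 with fatostatin, 9.29 with 25-HC, 22.01 with PF429424 and 589 with 1,10-Phen, against 135 CPM with IL4 alone, a log2 ratio of -1.53. Vcan, versican, had -1.39, and Sdc1, the proteoglycan syndecan-1, was at 184 CPM with betulin and 64.6 CPM with IL4 alone, a log2 ratio of 1.51 and the highest level of the 6 libraries. The stromal collagens Col1a1 and Col1a2 were at 15.6 and 16.8 CPM with betulin and at 47.8 and 48.8 CPM with IL4 alone, log2 ratios of -1.61 and -1.53, and betulin had the lowest level of the 6 libraries for both. Col5a1 and Col6a1 were also lower, at -1.94 and -1.16. Of the other stromal markers, Sparc had -0.99 and Pdgfrb -0.35, while Pdgfra and Cxcl12 had 0.11 and 0.16. The 8 stromal markers that passed the filter had a median of -1.08, which was -0.50 with no filter, -1.53 with a filter of 5 CPM, -0.46 with log2(FPKM + 1) and -0.49 against the median of the 6 libraries, and their part in the result for the matrix genes was not tested.

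Among 22 matrix proteases and inhibitors that passed the filter 2 were higher and 1 lower. Mmp13, a collagenase, was at 937 CPM with betulin, 630 with fatostatin, 1778 with 25-HC, 1392 with PF429424 and 6292 with 1,10-Phen, against 442 CPM with IL4 alone. Its log2 ratio was 1.08, and -0.29 against the median of the 6 libraries. Timp3, a protease inhibitor, was at 3.99 CPM with betulin and 10.1 CPM with IL4 alone, a log2 ratio of -1.32 and the lowest level of the 6 libraries. Of 17 growth factors 3 were higher and 2 lower, where 4.19% of all genes compared were called in either direction. Counts with betulin and with IL4 alone were low for Fgf2 (1 and 8), Nrg1 (16 and 35) and Angpt1 (36 and 14). Of all genes with a mean under 1 CPM 17.8% were called, and of those from 1 to 5 CPM 11.9%. The highest ratio was that of Inhba, the activin A subunit, at 12.8 CPM with betulin and 2.19 CPM with IL4 alone, a log2 ratio of 2.50.

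Several genes not usually counted among macrophage products were among the 25 highest ratios of well-counted genes, defined by 50 counts and 5 CPM in either library and a symbol that is not provisional. Dio2, the deiodinase that activates thyroid hormone, was at 67.9 CPM with betulin, 18.9 with fatostatin, 94.4 with 25-HC, 67.8 with PF429424 and 15.6 with 1,10-Phen, against 7.17 CPM with IL4 alone, a log2 ratio of 3.22. Gprc5b, an orphan receptor, was at 20.1 CPM with betulin, 8.42 with fatostatin, 28.8 with 25-HC, 14.7 with PF429424 and 11.8 with 1,10-Phen, against 3.03 CPM with IL4 alone, a log2 ratio of 2.69. For both the IL4 library was the lowest, and betulin lay within the range of the compounds. Rtn4r, the Nogo receptor, had 3.29 with 6.75 CPM with betulin and 0.61 CPM with IL4 alone, and Flrt3, a cell adhesion protein, had 2.63 with 18.9 CPM with betulin and 2.98 CPM with IL4 alone. Efcc1 had 3.91 with 7.64 CPM with betulin and 0.42 CPM with IL4 alone. Efcc1, Rtn4r, Dio2, Gprc5b and Flrt3 overlap other annotated genes, so with the strand setting unknown their reads may be shared. The same holds for Zfp469, Inhba, Plagl1, Plcxd2, Ifrd1 and Cryba4 among the 25 highest.

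The rest of the 25 held regulators of transcription and signalling. Gem, a small GTPase that restrains calcium channels, had 2.997, Dusp13, a phosphatase, 2.67, and Dusp10, which acts on stress kinases, 2.03. Dok7, an adaptor of the neuromuscular junction, had 2.42, Pou3f1, a POU factor, 2.37, and Plagl1, an imprinted zinc finger factor, 2.38. Ifrd1, a transcriptional coregulator, was at 209 CPM with betulin and 52.95 CPM with IL4 alone, a log2 ratio of 1.98. Bhlhe41, a circadian repressor, was at 77.4 CPM with betulin and 21.8 CPM with IL4 alone, a log2 ratio of 1.82, while Dbp, an output gene of the clock, had -1.76 with 1.13 CPM with betulin and 4.05 CPM with IL4 alone. Zfp469 had 2.86, Plcxd2 2.04, Ankrd33b 1.88, Cryba4 1.85, Cd200, an inhibitory ligand, 1.83, and Plpp3, a lipid phosphatase, 1.83. Akap2 had 2.44, but Pakap, from the same locus, showed 0 counts with betulin against 40 with IL4 alone, so both values are uncertain.

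Among the 25 lowest ratios, Sema6d, a semaphorin, was at 8.91 CPM with betulin, 11.2 with fatostatin, 4.83 with 25-HC, 7.19 with PF429424 and 5.46 with 1,10-Phen, against 39.7 CPM with IL4 alone, a log2 ratio of -2.14. Abca9, a lipid transporter relative, was at 19.6 CPM with betulin and 69.2 CPM with IL4 alone, a log2 ratio of -1.81. Il4i1, an amino acid oxidase known as IL4-induced, was at 5.91 CPM with betulin and 23.1 CPM with IL4 alone, a log2 ratio of -1.95, and its reads may be shared with the overlapping Il4i1b. For Sema6d, Abca9 and Il4i1 the IL4 library was the highest of the 6. The ion channels Scn3a and Kcnj10 had -1.97 and -1.98, the exchange factors Rasgrp1 and Fgd2 had -2.01 and -1.76, and the carbonyl reductase gene Cbr2 had -1.86. Kazald1 had -2.26, Ly6a -2.22, Sirpb1b -2.13, Ggt5 -1.87, Klhl33 -1.73, Adgb -1.72, Bmf, a cell death gene, -1.70, and St8sia1, a sialyltransferase, -1.67. Kazald1, Ly6a, Sema6d, Sirpb1b, P2ry12, Scn3a, Cx3cr1, Ggt5, Cd163, Adgb, Gbp3 and St8sia1 also overlap other annotated genes, so their reads may be shared. Zfp966 had 0 counts with betulin but 244 with IL4 alone. With 3 counts taken as the floor of a library it was at least 80.8-fold lower with betulin, but it has near copies in a zinc finger cluster on chromosome 2, so the split of reads among them is uncertain.

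Genes of cell division and sugar metabolism were within 2-fold. Of 30 G2/M and mitosis genes 28 had ratios below 0 with 0 called and a median of -0.21, for example Top2a, a topoisomerase, at 219 CPM with betulin and 289 CPM with IL4 alone, and against the median of the 6 libraries that median was 0.47. Of 30 DNA replication genes 0 were called, with a median of -0.06. Of 18 glycolysis genes 17 were above 0 with 0 called and a median of 0.28, and of 27 hypoxia targets 0 were called with a median of 0.25. Lysosomal genes had a median of 0.08 over 42 genes, and 1 was called, Ctsc, a protease that activates granule enzymes, at 248 CPM with betulin and 544 CPM with IL4 alone. Of 8 genes of the aryl hydrocarbon receptor pathway 1 was called, its repressor Ahrr, at 18.5 CPM with betulin and 46.0 CPM with IL4 alone, a log2 ratio of -1.31, which turned to 0.63 against the median of the 6 libraries.

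Among 21 genes for G protein signalling and thyroid hormone 5 were higher and 2 lower, with a median of -0.03. By the same rule 4.19% of all genes compared were called, and the lists were chosen with earlier results of these data known. The count is therefore no result about such genes. Among the higher was Rgs1, which damps chemokine receptor signalling, at 269 CPM with betulin and 95.2 CPM with IL4 alone. Among the lower was the orphan receptor Gpr141, at 9.14 CPM with betulin and 21.4 CPM with IL4 alone. Of 19 checkpoint and costimulation genes 1 was lower, Icosl, the ligand of ICOS, at -1.07, while Cd274, which encodes PD-L1, was at 217 CPM with betulin and 129.98 CPM with IL4 alone, a log2 ratio of 0.74. Of 22 Toll-like receptors and adaptors 1 was lower, Tlr5, a gene under 2 CPM in the betulin and IL4 libraries, and of 17 amino acid transporters 0 were called. Of 15 genes for sterol esterification and oxysterols Cyp27a1 was the 1 called. Of 17 clock genes 2 were higher and 1 lower, and of 8 osteoclast markers and 3 erythroid and megakaryocyte markers that passed the filter 0 were called.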

How the data were processed

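Total RNA of 6 cultures was sequenced, 1 library per treatment, and the betulin and IL4 libraries were compared. The deposited values are, per the file headers, an estimated count (expected count) per gene, made by the authors and unscaled between libraries and not whole for 30.5% to 32.0% of values per library. The deposited FPKM values divide such counts by length and depth. HISAT2, Bowtie2, DESeq2 and RSEM 1.2.12 are listed in the submitters' processing notes without a role, and strand settings are not given in the sources used here. Reads of near copies and of overlapping genes could be split by such counting.

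Counts were rounded to whole numbers. Genes with at least 1 CPM of the library total in at least 1 of 6 libraries were kept, and counts were scaled by TMM over the 6 libraries (edgeR 4.0.16, R 4.3.3). Log2 ratios used a prior count of 2, with exact Clopper-Pearson 95% intervals. With 1 library a side no test was run. The procedure was tested on a simulated pair of libraries with known folds and counting error only. That simulation holds no spread between cultures and no reads shared among near copies, so it cannot gauge either. Named genes were those of the 25 largest ratios in each direction (no provisional symbol, 50 counts and 5 CPM reached in either library, interval excluding no change) and, in each of 57 lists members past 2-fold with 5 CPM in either library, the 5 of largest ratio and those of highest level; the text leaves some out and adds members under 5 CPM to complete counts. The lists hold 1075 genes, 1058 of them in the files. The members and lists were chosen with earlier results of these data known.

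Promoters and positions are from RefSeq on GRCm38.p6, which held 99.2% of the gene IDs; coordinates in the tables are rounded. Mitochondrially encoded genes were not used here, and single values of some list members are not reported here. The 9 alternatives were DESeq2 1.42.0 size factors, library totals, TMM over 2 libraries, no filter, 5 CPM, prior counts of 0.5 and 10, log2(FPKM + 1) and the median of the 6 libraries; 1 filter was added after seeing the data. Python 3.11.15, numpy 2.4.6, pandas 2.3.3 and SciPy 1.17.1 were used.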

Additional observations from a re-analysis of the deposited data

How the results depend on the processing

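With 1 library per treatment, values describe these 2 libraries, and the depth sets a floor of 3 counts, or 0.141 CPM with betulin and 0.140 CPM with IL4 alone. No paired analysis was possible because each treatment has 1 library. Against 227 higher and 272 lower genes, a CPM of at least 5 gave 138 and 146, and log2(FPKM + 1) gave 76 and 101 (fewer genes enter with the first, and the pseudocount of the second shrinks ratios of low genes). Under DESeq2 size factors, library totals, TMM over the 2 libraries, prior counts of 0.5 and 10, no filter, and a filter on TMM-scaled totals chosen after seeing the data, higher counts ran from 158 to 280 and lower ones from 191 to 376. With library totals the median of all genes moved to -0.06, and list medians that left the central ranks of their members' ratios were -0.10 for cholesterol synthesis, -0.28 for G2/M and 0.17 for proteasome. With log2(FPKM + 1) they were -0.0885 for cholesterol synthesis, 0.21 for glycolysis and 0.17 for proteasome.

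With the median of the 6 libraries in place of the IL4 library, 25 of 54 list medians changed sign, complement among them at 0.0354. Counting as moved a median that left the central ranks of its members' ratios (a binomial 95% range, wide for short or scattered lists), 20 of 54 moved, to 0.0023 for zinc genes, -0.0478 for alternative activation, 0.0586 for scavenger receptors, 0.0938 for MHC class II, -0.0237 for class I, 0.0408 for macrophage identity, 0.0204 for the Trem2 list, -0.0266 for hypoxia, 0.0115 for glycolysis, -0.24 for ATF4, -0.27 for serine and one-carbon synthesis, -0.18 for tRNA synthetases, 0.0282 for glutathione S-transferases, 0.31 for DNA replication, 0.47 for G2/M, -0.12 for interferon-gamma GTPases, 0.0411 for Fc receptors, 0.0033 for immediate early factors, 0.0707 for proteasome and 0.43 for erythroid markers. Under it 27 of 101 named genes changed sign, to these log2 values: Adgb 0.17, Ahrr 0.63, Alox5 0.35, Apoc2 0.14, Asns -0.68, Cbr2 0.67, Ccl24 1.25, Cd163 0.58, Cd74 0.0723, Ciita 0.57, Ctsc 0.23, Cyp27a1 0.24, Fcgrt 0.27, Fcrls 0.55, Gbp3 0.0566, H2-DMa 0.0697, Hpgd 0.41, Htr2b -0.29, Kcnj10 0.39, Mmp13 -0.29, P2ry12 0.74, Retnla 1.32, Rnase2a 1.09, Scn3a 1.19, Sema6d 0.15, Trib3 -1.03 and Vcan 0.40. That median is made up of the 4 other compounds, betulin and IL4 alone. No named gene changed sign under the 9 other settings.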

Other observations

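Genes outside the lists and outside the named ratios were looked at after their values were seen, among 7000 genes with a mean of at least 20 CPM in the 2 libraries, of which 48 were higher and 50 lower (1.40%). Among them Gadd45b, a stress-induced growth arrest gene, was at 114 CPM with betulin and 32.4 CPM with IL4 alone, a log2 ratio of 1.82, and Sgk1, a serum-induced kinase, at 321 CPM with betulin and 124 CPM with IL4 alone. Npy, neuropeptide Y, was at 80.4 CPM with betulin and 27.0 CPM with IL4 alone, and Lhfpl2 at 657 CPM with betulin and 250.1 CPM with IL4 alone. The kinase Pim1 had a log2 ratio of 1.01 and Pdpn, podoplanin, 1.13.

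On the lower side Selenop, the selenium transport protein, was at 164 CPM with betulin, 391 with fatostatin, 58.1 with 25-HC, 114 with PF429424 and 68.6 with 1,10-Phen, against 404 CPM with IL4 alone, a log2 ratio of -1.30. Itgal, the LFA-1 integrin chain, was at 59.7 CPM with betulin and 161 CPM with IL4 alone, a log2 ratio of -1.43. The MS4A family genes Ms4a14, Ms4a4a, Ms4a6b and Ms4a6c had -1.56, -1.27, -1.24 and -1.15. Hfe, which regulates iron uptake, had -1.14, and Rnase4, a ribonuclease, was at 70.9 CPM with betulin and 187 CPM with IL4 alone. IL4 alone had the highest level of the 6 libraries for 35 of the 50 lower genes at this level, and betulin the lowest for 5.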
